A study of Arabidopsis thaliana with 12 samples.

Results

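The genes described here belong to the phosphate starvation response and were taken by locus identifier, 9 of the 32833 genes in the table: GDPD1 (AT3G02040), GDPD2 (AT5G41080), SPX1 (AT5G20150), SPX3 (AT2G45130), PHT1;4 (AT2G38940), MGD3 (AT2G11810), SQD1 (AT4G33030), SQD2 (AT5G01220) and PHR1 (AT4G28610). GDPD1 was picked because its transcript rose less under heat in the mutant, so its values are given as a description with no test. RNA from whole Arabidopsis thaliana seedlings, 7 days old, was sequenced in 12 libraries of 4 groups, 3 libraries each. The groups were wild-type Col-0 at control (wt control), Col-0 held at 38 °C for its last 3 h (wt heat), and the line labelled as a triple mutant in hop1, hop2 and hop3 at control (hop control) and after the same heat (hop heat). HOP proteins are co-chaperones that connect HSP70 with HSP90. The labels describe 1 mutant line, and the seedlings are whole plants, in which fewer cells of a type and less RNA per cell cannot be told apart. No label says that the 3 libraries of a group come from separate cultures, so p-values measure only the spread between these libraries.

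Plants short of phosphate take up more of it through PHT1 transporters of the plasma membrane and replace phospholipids of their membranes with galactolipids and sulfolipids. The transcription factor PHR1 switches on most of these genes by binding a short element in their promoters called P1BS. SPX proteins bind inositol pyrophosphates, signals of a good phosphate supply, and then hold PHR1 away from its targets. GDPD1 and GDPD2 are glycerophosphodiester phosphodiesterases, which cut the head group from glycerophosphodiesters left over from phospholipid breakdown. MGD3 makes monogalactosyldiacylglycerol, and SQD1 and SQD2 make sulfolipid.

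The P1BS element is GNATATNC and the heat shock element was searched as TTCNNGAA or GAANNTTC. Both are palindromes, so a match on one strand is a match on the other, and the run GAATATTC fits both. The promoters were read from RefSeq's TAIR10.1 assembly, and coordinates are those of that assembly, since no label or header names the authors' build. The 250 bases before the annotated start are shown for GDPD1, on which the gene choice turned, for SPX3, the other member with P1BS in that window, and for GDPD2, the GDPD1 relative without one. They lie at chr3:350011-350260 on the minus strand, chr2:18606160-18606409 on the plus strand and chr5:16441405-16441654 on the plus strand. Capitals mark matches to either element, 5′ to 3′ on the strand of the gene.
GDPD1: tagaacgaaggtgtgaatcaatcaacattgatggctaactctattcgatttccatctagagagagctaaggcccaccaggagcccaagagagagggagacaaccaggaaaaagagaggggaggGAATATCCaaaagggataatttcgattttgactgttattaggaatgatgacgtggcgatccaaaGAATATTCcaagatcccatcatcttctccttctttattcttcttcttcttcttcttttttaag
SPX3: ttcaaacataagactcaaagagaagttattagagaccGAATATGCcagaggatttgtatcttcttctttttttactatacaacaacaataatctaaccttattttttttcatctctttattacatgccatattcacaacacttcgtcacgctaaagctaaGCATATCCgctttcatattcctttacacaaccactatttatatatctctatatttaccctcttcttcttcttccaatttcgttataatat
GDPD2: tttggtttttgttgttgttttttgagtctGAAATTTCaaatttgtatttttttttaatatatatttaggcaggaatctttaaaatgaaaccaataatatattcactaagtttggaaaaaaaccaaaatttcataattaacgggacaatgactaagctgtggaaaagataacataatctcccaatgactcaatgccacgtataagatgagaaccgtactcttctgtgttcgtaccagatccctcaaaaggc

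GDPD1 held 4 P1BS matches in its 1000 bases upstream, starting 324, 312, 127 and 63 bases before the start, and those at 312 and 63 read GAATATTC and so fit both elements. GDPD2 held none in 1000 bases and a heat shock element match at 221. SPX1 and SQD2 had no P1BS match in 250 bases and 1 each further upstream, at 735 and 340, again with the run that fits both. These are shown with 20 bases on either side, from chr5:6801527-6801574 on the plus strand and chr5:90430-90477 on the minus strand.
SPX1: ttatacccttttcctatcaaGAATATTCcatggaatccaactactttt
SQD2: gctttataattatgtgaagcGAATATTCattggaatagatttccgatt

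Within 250 bases, P1BS was present in 2 of the 9 genes and in 5.46% of 27443 promoters. Within 1000 bases it was present in 4 of the 9 and in 20.25% of all promoters. Over the further phosphate genes described below, 13 of 64 (20.3%) held it within 250 bases and 30 of 64 (46.9%) within 1000. The heat shock element was more common, at 16.15% of all promoters within 250 bases and 52.4% within 1000, with 4 and 8 of the 9 genes. A single run of 8 bases fitting both elements stood in 2.82% of all promoters within 1000 bases and in 3 of the 9 genes (GDPD1, SPX1 and SQD2). These shares describe letters in a window and not binding.

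Libraries held 26.1 to 38.7 M fragments, and 22326 to 23814 genes had a fragment in each. The level of a gene is given as a normalized count, the authors' fragment count divided by 1 size factor per library. HOP1 was not lower in the libraries labelled hop, at 554 to 676 against 538 to 726 at control and 1654 to 2299 against 991 to 1359 under heat. HOP2 was at 6.36 to 7.68 against 483 to 635 at control, but at 4046 to 5128 against 7318 to 8629 under heat. HOP3 was at 0 to 9.39 against 75.2 to 88.5 at control and at 1216 to 1346 against 89090.3 to 122589 under heat. A count over a whole gene cannot show whether an inserted or altered transcript makes protein, so hop below means the libraries with that label. Summed markers of root hairs (7 genes) were 633.9 to 835 in wt heat and 481 to 702 in hop heat, and those of endodermis (6 genes) were 1651 to 2412 and 1151 to 2404. Summed green tissue markers (5 genes) were 1.44 to 1.94 M in wt heat and 1.85 to 2.34 M in hop heat. These ranges overlapped between genotypes for all 3 lists, and no marker was at 0 throughout a group. Their part in the results below was not tested.

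GDPD1 transcripts rose with heat in wt far more than in hop, which is how the gene was chosen. The normalized counts in wt control were 531, 603 and 561, and in wt heat 2396, 2526 and 1694. In hop control they were 469, 397 and 448, and in hop heat 698, 679 and 605. Every hop heat library lay below every wt heat library and above every control library of both genotypes, the narrowest gap being that from 603 in wt control to 605 in hop heat. The heat mean was 3.90 times the control mean in wt and 1.51 times in hop. The hop mean was 77.5% of wt at control and 29.96% under heat. On the log2(value + 1) scale the heat change was 1.94 in wt and 0.59 in hop, a difference of -1.35, and the gap between genotypes was -0.37 at control and -1.72 under heat. When libraries were scaled by their size alone, the hop heat change of GDPD1 became -0.33, in a setting where the median of all genes was -0.97, so that it was 0.64 above that median. The wt change was then 1.06, or 1.999 above its median of -0.94.

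**Figure D1:**
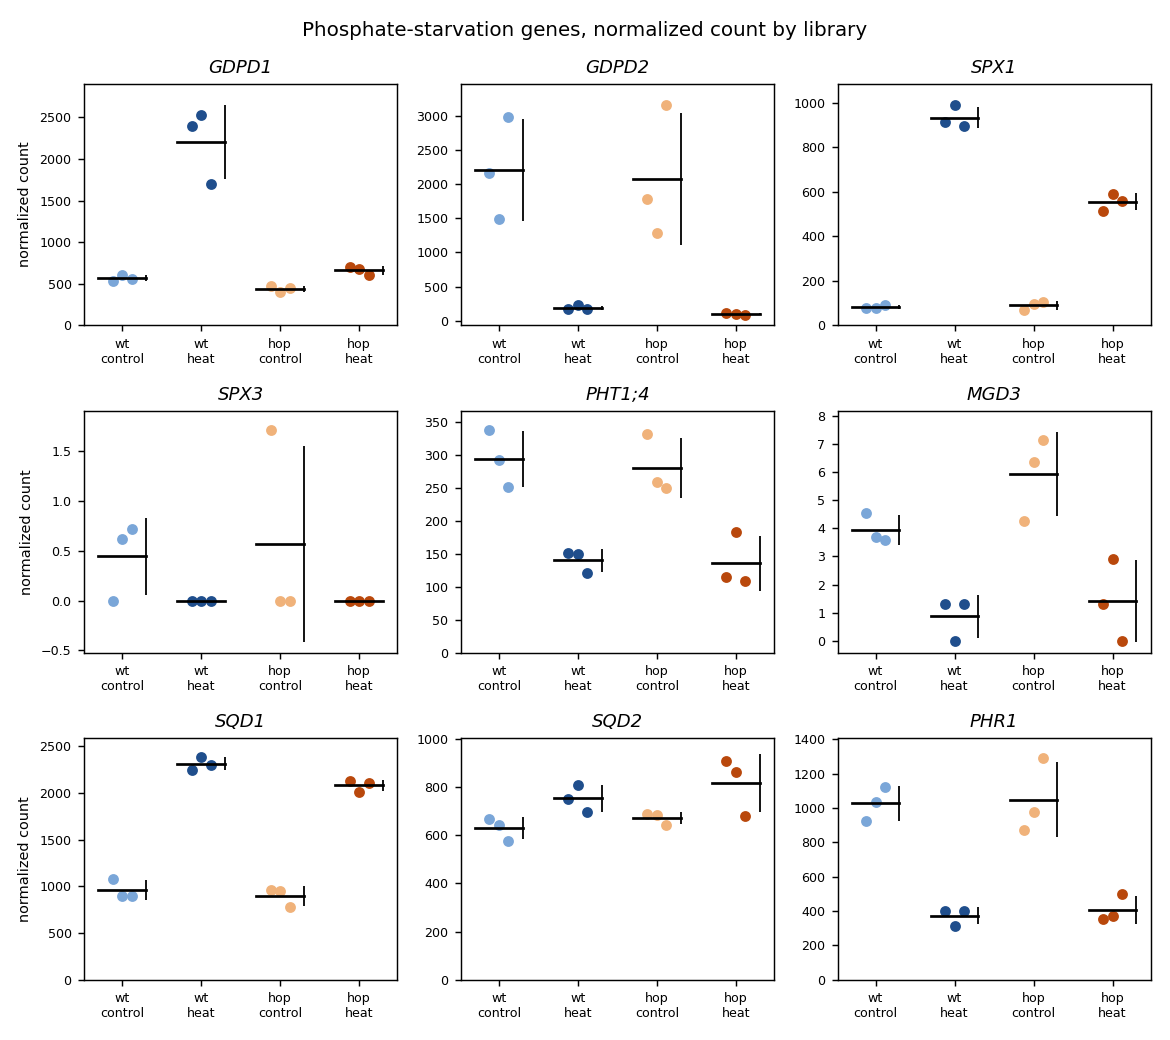
Normalized count (linear axis) of the 9 genes in each library, with 1 point per library, a horizontal line at the group mean and a vertical line for ±1 SD (n = 3). GDPD1 and SPX1 are highest in wt heat, GDPD2, PHT1;4, PHR1 and MGD3 are lower under heat in both genotypes, and SPX3 has a fragment in 3 libraries.

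The other members were tested with limma across all genes, and 7 of the 8 passed the filter on low values. The median log2 fold change of these 7 was -1.06 in wt and -1.07 in hop, beside -0.08 and -0.06 over all 23827 tested genes. Heat raised 3 of the 7 and lowered 4 in wt, where 33.2% of all tested genes were called higher and 35.8% lower. The same 3 were higher and the same 4 lower in hop, with a background of 33.3% higher and 35.2% lower. With so many genes called, a call under heat sets none of these genes apart. The share of all calls that were higher was 48.1% in wt and 48.6% in hop, and 17.9% and 17.4% with library size as the only scaling.

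Among the regulators, SPX1 and PHR1 moved in opposite directions. SPX1, a sensor that restrains PHR1, had normalized counts of 77.6, 79.3 and 91.6 in wt control and 915, 988 and 896 in wt heat. It had 68.3, 96.9 and 106 in hop control and 515, 591 and 558 in hop heat. Heat and control libraries did not overlap in either genotype, nor did the 2 genotypes under heat, where every hop library was under every wt library. SPX1 rose 11.3-fold in wt (log2 fold change 3.48, adjusted p = 1.04e-11, limma) and 6.14-fold in hop (2.63, adjusted p = 2.93e-10, limma). PHR1 had 922, 1037 and 1125 in wt control, 402, 314 and 402 in wt heat, 873, 975 and 1291 in hop control and 352, 369 and 499.5 in hop heat. Its heat libraries were all under its control libraries, with the genotypes mixed among each other. PHR1 fell by 1.47 on the log2 scale in wt (adjusted p = 1.00e-06, limma) and by 1.36 in hop (adjusted p = 2.24e-06, limma). SPX3, a second sensor of this family, had no more than 2 fragments in any library, 0, 1 and 1 in wt control, 2, 0 and 0 in hop control and 0 in all 6 heat libraries, and was not tested. A count of 0 over the 3 libraries allows a mean normalized count of up to 1.43 in wt heat and 1.27 in hop heat, above the control means, so no change of SPX3 was detectable at this depth.

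Of the lipid genes, GDPD2 fell most. Its normalized counts were 2162, 1491 and 2981 in wt control and 1777, 1286 and 3151 in hop control, a wide spread in which replicate 3 was highest and replicate 2 lowest in both genotypes. Under heat they were 172, 225 and 166 in wt and 110.0, 92.9 and 85.7 in hop. Every heat library was below every control library, and every hop heat library was below every wt heat library. The control mean was 11.8 times the heat mean in wt (log2 fold change -3.51, adjusted p = 2.05e-06, limma) and 21.5 times in hop (-4.32, adjusted p = 3.45e-07, limma). With the authors' size factors GDPD1, which was not tested, rose with heat, and GDPD2, an enzyme of the same reaction, fell. In hop the sign of the GDPD1 change depended on the scaling. With library size as the only scaling the hop changes were -0.33 for GDPD1 and -5.38 for GDPD2. Relative to the median of all genes these were 0.64 and -4.41. The wt changes were then 1.06 and -4.45.

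SQD1, which makes the sulfur-bearing sugar of sulfolipid, rose in both genotypes. It had 1078, 897 and 899 in wt control, 2248, 2383 and 2301 in wt heat, 959, 951 and 779 in hop control and 2121, 2005 and 2107 in hop heat. The heat libraries lay apart from all controls. The log2 fold change was 1.27 in wt (adjusted p = 1.86e-08, limma) and 1.22 in hop (adjusted p = 3.06e-08, limma). With library size as the only scaling these became 0.40 and 0.30, still called, or 1.33 and 1.27 above the median of all genes. SQD2, the enzyme that transfers this sugar to the lipid, moved little, with 668, 643 and 578 in wt control, 752, 809 and 697 in wt heat, 688, 685 and 642 in hop control and 909, 862 and 680.1 in hop heat. Its groups were apart in wt and overlapped in hop, where 1 heat library was below 2 of the control libraries. The changes of 0.26 (adjusted p = 0.0495, limma) and 0.27 (adjusted p = 0.0396, limma) were just past the threshold. They lost the call in 11 of 19 alternatives in wt and 7 of 19 in hop, with adjusted p up to 0.180 and 0.176 (limma). The authors' deposited table gives SQD2 an adjusted p of 0.0586 in wt and 0.0392 in hop (DESeq2). With library size as the only scaling SQD2 was called lower, at -0.63 (adjusted p = 4.06e-05, edgeR) and -0.65 (adjusted p = 2.55e-05, edgeR). These values were 0.31 and 0.32 above the median of all genes in that setting.

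MGD3, which makes galactolipid when phosphate is short, was close to the limit of detection, with 5 to 11 fragments in the control libraries and 0 to 2 under heat. Its normalized counts were 4.56, 3.69 and 3.58 in wt control, 1.32, 0 and 1.32 in wt heat, 4.27, 6.36 and 7.15 in hop control and 1.33, 2.90 and 0 in hop heat. Heat values were below control values in both genotypes. The log2 fold change was -1.49 in wt (adjusted p = 0.0162, limma) and -1.71 in hop (adjusted p = 0.00729, limma), and the calls ended with DESeq2 in both (adjusted p = 0.128 and 0.0539) and without wt heat replicate 2 in wt (0.0806). Over all alternatives the adjusted p ran from 0.00543 to 0.128 in wt and from 6.20e-04 to 0.0539 in hop. The authors' deposited table gives MGD3 an adjusted p of 0.108 in wt and 0.0386 in hop (DESeq2).

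PHT1;4, a phosphate uptake transporter of the root, had 337, 292 and 251 in wt control, 151, 149 and 119.9 in wt heat, 331, 258 and 249 in hop control and 114, 183 and 108 in hop heat. Heat values were below all control values in each genotype, and the genotypes overlapped in both conditions. It fell by 1.06 on the log2 scale in wt (adjusted p = 1.43e-04, limma) and by 1.07 in hop (adjusted p = 1.28e-04, limma).

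**Figure D2:**
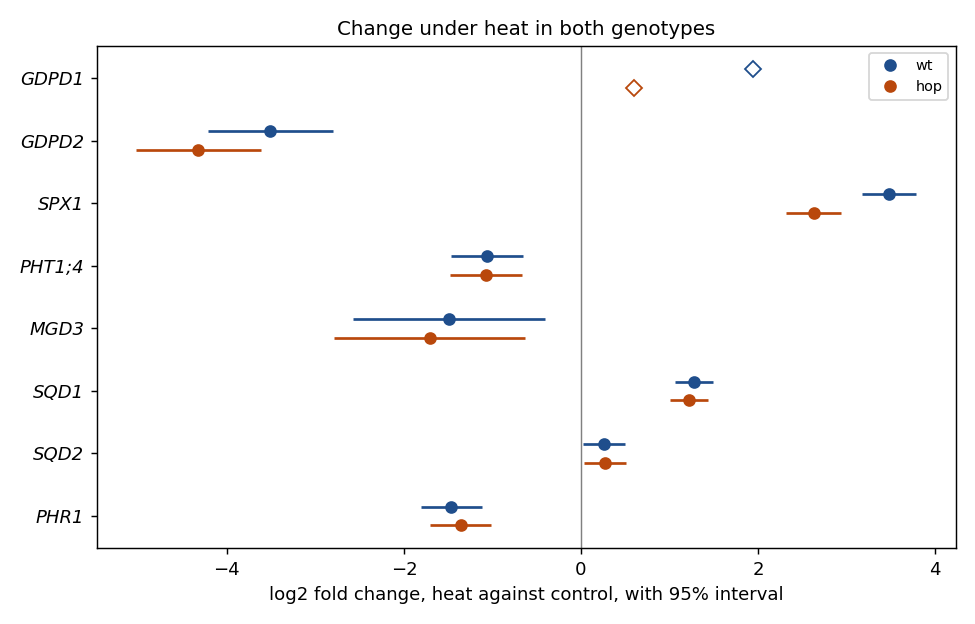
Change under heat on the log2(value + 1) scale for 8 of the genes, in wt (blue) and hop (orange), with the 95% interval from limma; open diamonds are GDPD1, given with no interval because it was chosen on this change. SPX1 is 3.48 in wt and 2.63 in hop, GDPD2 is -3.51 and -4.32, and PHT1;4, SQD1, SQD2 and PHR1 have nearly the same value in both genotypes.

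Between genotypes at control, none of the 7 tested members was called, by limma, by edgeR or by DESeq2, and 0 passed at an unadjusted p under 0.05 in limma. Over all genes 0.344% were called higher and 0.487% lower in hop. The median of the 7 was 0.01, equal to 0.01 over all genes. The intervals of the difference were -0.20 to 0.41 for SPX1, -0.31 to 0.12 for SQD1, -0.14 to 0.33 for SQD2, -0.33 to 0.35 for PHR1 and -0.48 to 0.34 for PHT1;4. They were wider for GDPD2 (-0.84 to 0.57) and MGD3 (-0.61 to 1.55). At control the same replicate number in both genotypes deviated together, and with replicate number as a block within each condition, chosen after the data were seen, 680 genes were called in place of 198. No member was called with that block either. The share of all calls that were higher was 41.4%, and 20.5% with library size as the only scaling.

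Under heat, 1 of the 7 tested members differed, against 3.73% of all genes higher and 4.89% lower in hop. That gene was SPX1, which was lower in hop at 555 ± 37.7 against 933 ± 48.4 (SD, n = 3), a log2 fold change of -0.75 (95% interval -1.06 to -0.44, adjusted p = 0.00624, limma). The call held in all 20 alternatives, with adjusted p from 2.19e-06 to 0.0326. GDPD2, with hop at 51.3% of wt and no overlap, had -0.95 (interval -1.66 to -0.25, adjusted p = 0.0952, limma) and was not called. It passed with DESeq2 (adjusted p = 0.0225), without hop control replicate 3 (0.0247) and with the block within condition (1.52e-04), over a range up to 0.227. The authors' deposited table gives GDPD2 a log2 fold change of -0.94 with an adjusted p of 0.0235. SQD1 had -0.15 (interval -0.37 to 0.06, adjusted p = 0.371, limma), although its hop libraries were all below its wt libraries. PHT1;4 (-0.49 to 0.32), SQD2 (-0.13 to 0.35), PHR1 (-0.23 to 0.46) and MGD3 (-0.83 to 1.33) overlapped between genotypes and had intervals that span 0. Of all calls, 43.3% were higher, and 16.7% with library size as the only scaling.

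**Figure D3:**
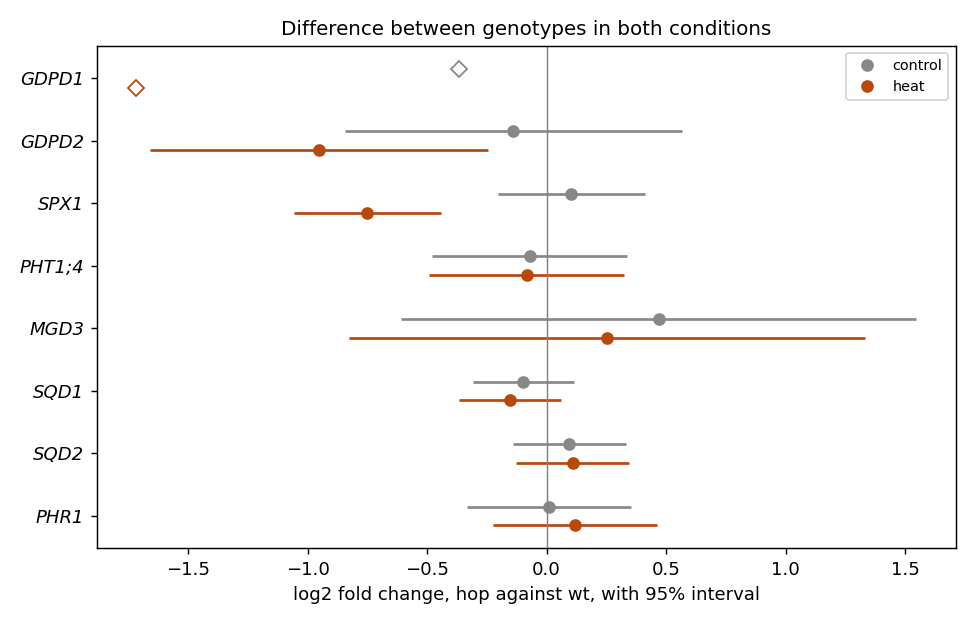
Difference between hop and wt on the log2(value + 1) scale at control (grey) and under heat (orange) for 8 of the genes, with the 95% interval from limma; open diamonds are GDPD1, given with no interval. Under heat the intervals of SPX1 and GDPD2 lie below 0, at -0.75 and -0.95, and every other interval shown crosses 0.

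The heat response itself was compared between genotypes as the difference of both changes. None of the 7 tested members was called by limma, where 0.0126% of all genes were called higher and 0.0378% lower, and 1 had an unadjusted p under 0.05. That was SPX1, whose rise was smaller in hop by 0.85 on the log2 scale (difference -0.85, interval -1.29 to -0.42, adjusted p = 0.140, limma). It passed with DESeq2 (adjusted p = 0.00849) and with the block within condition (0.0185), and the range was 0.00849 to 0.308. With edgeR no member was called and with DESeq2 SPX1 was the only one. For GDPD2 the difference was -0.81 (interval -1.81 to 0.19, adjusted p = 0.630, limma), called with the block within condition (0.0245) over a range of 0.0245 to 0.855. The remaining 5 ranged from -0.22 for MGD3 to 0.11 for PHR1. Of the 12 calls over all genes 25% were higher, and 20% with library size as the only scaling.

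Levels were set beside each other per kilobase of exon, from the TAIR10.1 annotation. In wt control the order was GDPD2 (1383 ± 466 normalized counts per kilobase), PHR1 (580.3 ± 57.5), SQD1 (502 ± 54.4), GDPD1 (370.4 ± 23.6), SQD2 (277 ± 20.5), PHT1;4 (147 ± 21.6), SPX1 (68.7 ± 6.37), MGD3 (2.05 ± 0.280) and SPX3 (0.484 ± 0.423), each mean ± SD, n = 3. The ranges of PHR1 and SQD1 overlapped, and the other neighbours did not. In hop control the order was the same except that SQD2 (295 ± 11.5) and GDPD1 (287 ± 24.3) stood the other way round, with overlapping ranges, and PHR1 and SQD1 again overlapped. In wt heat GDPD1 (1446 ± 294) and SQD1 (1210.4 ± 35.4) led with overlapping ranges, followed without overlap by SPX1 (774 ± 40.1), SQD2 (331 ± 24.6), PHR1 (210.5 ± 28.5), GDPD2 (117 ± 20.3), PHT1;4 (70.0 ± 8.64) and MGD3 (0.457 ± 0.396). In hop heat SQD1 led alone (1089 ± 33.2). SPX1 (460.0 ± 31.3), GDPD1 (433 ± 32.4) and SQD2 (359 ± 53.1) followed, each overlapping the next, then PHR1 (229.7 ± 45.5), and PHT1;4 (67.6 ± 20.7) and GDPD2 (60.1 ± 7.81), which overlapped. GDPD2 thus moved from the highest level of the 9 at control to the lower part of the order under heat in both genotypes.

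The 5 genes with a mean of at least 100 whose log2(value + 1) followed GDPD1 most closely over the 12 libraries, of 13956 compared, were AT2G29290 (Pearson r = 0.973), SHA1 (0.971), AT3G11530 (0.970), MOS4 (0.969) and AT1G06630 (0.955). AT2G29290, annotated as a tropinone reductase homolog, had mean normalized counts of 1491, 2229, 1304 and 1499 in wt control, wt heat, hop control and hop heat. MOS4, a splicing factor of the SPF27 family, had 343, 594, 309 and 356. The other tested members had r of 0.801 (SPX1), 0.754 (SQD1), 0.397 (SQD2), -0.559 (GDPD2), -0.580 (PHT1;4), -0.680 (MGD3) and -0.733 (PHR1). The 5 genes above were taken for the highest r, so lower values of the members follow from that choice and are no result. The 12 libraries come from 4 groups that differ by heat and genotype, and these values are a description.

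The pathway beyond the 9 genes was read from 64 further phosphate genes, of which 59 were tested. In wt heat raised 29 and lowered 18, and in hop 29 and 14, with medians of 0.37 and 0.18 beside -0.08 and -0.06 over all genes. These are 79.7% of the 59 called in wt and 72.9% in hop, where 69% and 68.5% of all tested genes were called (33.2% higher and 35.8% lower in wt, 33.3% and 35.2% in hop). The counts of the 4 lists that follow stand against the same background, and no list was tested as a set. Their median log2 fold changes in wt and hop were 0.15 and 0.05 for signalling and regulation, and 0.54 and 0.91 for membrane lipid remodelling. They were -0.32 and 0.05 for transport, and 0.69 and -0.0054 for phosphatases and ribonuclease. Scaled by library size alone the medians of the 59 became -0.49 in wt and -0.74 in hop, beside -0.94 and -0.97 over all genes. In that setting 18 were higher and 29 lower in wt, where 3172 of the 23827 tested genes were higher and 14504 lower. In hop 18 were higher and 30 lower, against 3111 and 14734 of all tested genes. Of the 23 genes of signalling and regulation 10 were higher and 8 lower in each genotype. Of the 15 tested genes of membrane lipid remodelling 9 were higher and 3 lower in wt and 10 and 2 in hop. Of the 14 tested transport genes 6 were higher in each genotype, and 5 were lower in wt and 4 in hop. Of the 7 phosphatase and ribonuclease genes 4 were higher and 2 lower in wt, and 3 were higher and 0 lower in hop.

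Among the largest rises GDPD3, another enzyme of the GDPD1 family, went from 9.13, 11.7 and 9.31 to 627, 715 and 601 in wt, and from 17.1, 7.78 and 9.10 to 710.2, 643 and 746 in hop. Its log2 fold changes were 5.88 and 5.90 (adjusted p = 3.43e-12 and 3.02e-12, limma), with no overlap of heat and control. ZAT6, a zinc finger repressor, rose by 4.87 in wt and 5.20 in hop, the acid phosphatase PAP17 by 4.65 and 4.82, and the transcription factor MYB62 by 3.65 and 4.95. DGD2, which makes digalactosyldiacylglycerol, rose by 3.44 and 3.93, and WRKY75, a regulator of phosphate genes, by 2.96 and 2.87. DGD1, the main enzyme of the same lipid, rose by 2.69 in wt and 2.99 in hop. The falls were led by the transporter PHT1;9 (-2.89 in wt and -3.00 in hop), WRKY42 (-2.83 and -2.45) and MGD2, a sister of MGD3 (-1.96 and -2.23). AT3G01310 fell by 1.76 and 1.49, and PHO1;H1, a relative of the phosphate exporter PHO1, had log2 fold changes of -1.67 and -1.77. PHO1, which loads phosphate into the xylem, had -1.59 in wt and -1.37 in hop, and PHF1, which lets PHT1 transporters leave the endoplasmic reticulum, had -0.73 and -1.58, all called. PHT1;9 and WRKY42 were at 5.30 normalized counts or less in every heat library. MYB62 had only 11, 7 and 7 fragments in wt control and 9, 4 and 6 in hop control. The calls that the naming rule picked held in every alternative run for them, and those of DGD1 and PHF1 in wt and of WRKY75 and PHO1 in hop, which it did not pick, were not run. Of the rest of the GDPD family, named here after their values were seen, GDPD4 rose by 1.23 in wt and 1.24 in hop and GDPD6 by 2.69 and 2.38, while GDPD5 had 0.01 and 0.17 and was not called. GDPD6 was near the limit of detection at control, with 5, 15 and 2 fragments in wt and 4, 6 and 4 in hop.

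**Figure D4:**
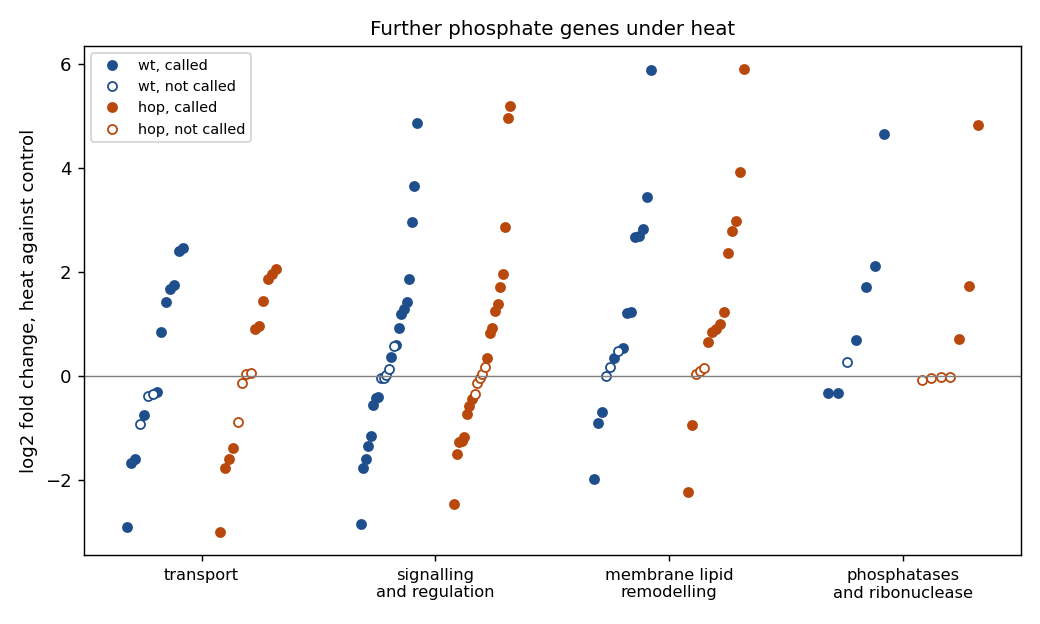
Change under heat on the log2(value + 1) scale of the 59 tested further phosphate genes in 4 lists, wt in blue and hop in orange, filled where called at an adjusted p under 0.05; points are spread sideways in order of value within a list. Each list holds genes above and below 0, and the highest point in membrane lipid remodelling is GDPD3, at 5.88 in wt and 5.90 in hop.

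At control 0 of the 59 were called between genotypes by limma, edgeR or DESeq2, with 9 at an unadjusted p under 0.05 in limma, where 0.344% of all genes were called higher and 0.487% lower. With the block within condition 1 was called. Under heat 7 were higher and 3 lower in hop by limma, 16.9% of the 59 beside 8.62% of all genes (3.73% higher and 4.89% lower). In all 7 were called with edgeR, 11 with DESeq2 and 21 with the block within condition. With library size as the only scaling 0 were higher and 2 lower, where 209 of the 23827 tested genes were higher and 1042 lower. No rise of the 59 kept its call there. Leaving out 1 library gave as few as 3, with 4, 6 and 3 without wt heat replicates 1, 2 and 3, and 3 and 4 without hop heat replicates 1 and 2. The median of the 59 was 0.14, beside 0.04 over all genes, and 0.0069 beside -0.084 with library size as the only scaling.

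PHF1 was the most stable of these. Its normalized counts under heat were 126, 149 and 116 in wt and 70.2, 79.8 and 71.2 in hop, and at control 225, 214 and 208 in wt and 224, 239.7 and 205 in hop. The hop heat libraries were below all others. The difference under heat was -0.81 (interval -1.08 to -0.53, adjusted p = 0.00210, limma) and held in all 20 alternatives (up to 0.0113). PHO2, the ubiquitin-conjugating enzyme that marks PHO1 and PHT1 proteins for breakdown, had 642, 678 and 613 in wt heat and 1000.4, 1019 and 1101 in hop heat. It was higher in every hop heat library, by 0.69 (adjusted p = 0.00292, limma). PHO1 had 409.8, 417 and 459 in wt heat and 633, 623 and 656 in hop heat, again without overlap, and was higher by 0.57 (adjusted p = 0.00445, limma). Both lost the call with library size as the only scaling (adjusted p = 0.0522 and 0.113), and their adjusted p began at 5.05e-05 and 4.77e-04 over the alternatives. At control PHO1 was already higher in every hop library, at 1682, 1387 and 1911 against 1338, 1253 and 1285 (0.35, adjusted p = 0.179, limma). PHO2 overlapped between genotypes there (0.27, adjusted p = 0.422, limma). The heat responses differed by 0.22 for PHO1 and 0.42 for PHO2, neither called by limma.

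For DGD2 the heat level in hop exceeded that in wt by 0.49 (adjusted p = 0.0151, limma), for PAH1, a phosphatidate phosphatase, by 0.45 (adjusted p = 0.0258), for the phospholipase NPC4 by 0.84 (adjusted p = 0.0379) and for the phospholipase D PLDP2 by 0.93 (adjusted p = 0.0495), all by limma. The pyrophosphatase PPsPase1 had -1.40 (adjusted p = 0.0266, limma) and MGD2 had -1.19 (adjusted p = 0.0365, limma). PPsPase1 spread widely in wt heat, at 38.3, 16.5 and 56.7, and narrowly in hop heat, at 11.9, 11.6 and 12.4. Each of these 6 lost the call in 4 or more of 20 alternatives, with the highest adjusted p at 0.0737 for DGD2, 0.315 for PAH1, 0.185 for NPC4, 0.134 for PLDP2, 0.111 for PPsPase1 and 0.131 for MGD2. The 7th rise, GDPD5 (0.42), fell outside the rule for naming genes. In the difference of heat responses, where limma called 0.0504% of all genes, 0 of the 59 were called by limma or edgeR. There 9 had an unadjusted p under 0.05 in limma, DESeq2 called 1 and the block within condition called 2.

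**Figure D5:**
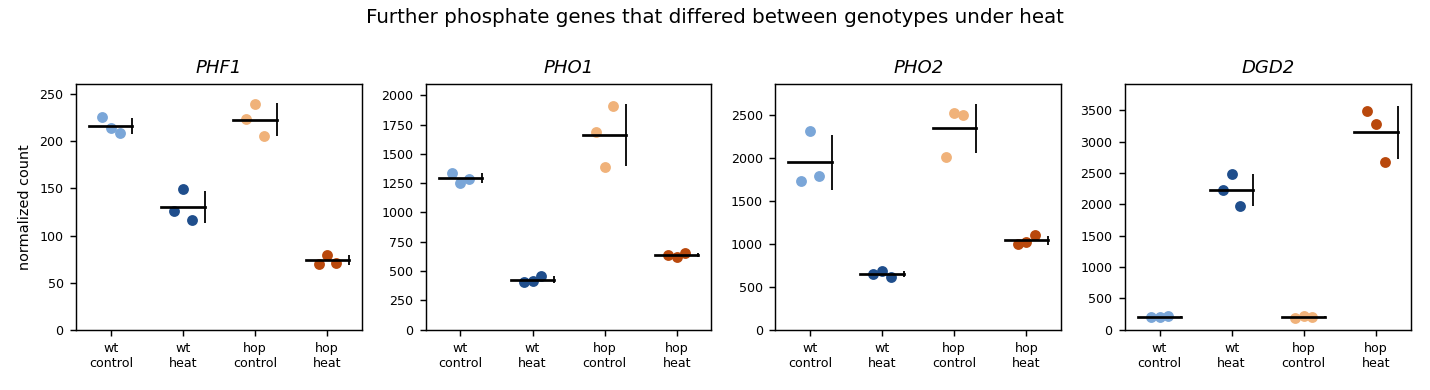
Normalized count (linear axis) per library of 4 further phosphate genes that differed between genotypes under heat, with the group mean as a line and ±1 SD (n = 3). In the hop heat libraries PHF1 is at 70.2 to 79.8, below wt heat at 116 to 149, while PHO1, PHO2 and DGD2 are above wt heat.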

How the data were processed

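The library kit was stranded and selected mRNA, per the labels' protocols. The submitters' processing notes name TopHat2 2.1.0, HTSeq and DESeq2 1.1.14. Build, annotation and counting settings are not given in the sources used here. A single table was deposited, whose expression signal is a normalized fragment count per gene, and 100% of its values were whole multiples of 1 fragment within a tolerance of 0.01. The authors also deposited log2 fold changes with standard errors, linear fold ratios, a test statistic (a score) and p-values for 4 group comparisons. Of these only log2 fold changes and adjusted p-values are quoted, as the authors' deposited table.

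The design named limma for normalized values, and limma 3.58.1 (trend, robust; R 4.3.3) was run on log2(value + 1) over all 12 libraries with 4 group means. The test covered the 23827 genes that reached a value of 1 in 3 or more libraries, with Benjamini-Hochberg adjustment over all of them and calls under 0.05. The log2(value + 1) scale understates changes of low genes. Fragment counts recovered from the table were tested with edgeR 4.0.16 and DESeq2 1.42.0 as alternatives. Other alternatives were library size scaling, a pseudocount of 0.5, other filters, replicate blocks and leaving out each library.

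Replicates with the same number deviated together between genotypes at control (correlations 0.71, 0.38 and 0.52), although the labels do not say why. They did not do so throughout under heat (0.04, 0.37 and 0.54) or between conditions (-0.21, -0.49 and 0.26 in wt, 0.31, -0.07 and 0.41 in hop). No 2 libraries of a group agreed within sampling noise. A count of 0 was read as allowing 3 fragments over a group, which covers counting error only.

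The named further genes were, in each comparison, up to 6 called rises and 6 called falls of largest size with a group mean of at least 10 and, outside the difference of responses, no overlap between groups. The members and lists were chosen with earlier results of these data known. Names are those of the table or RefSeq, so that some listed genes appear by identifier.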

Additional observations from a re-analysis of the deposited data

How the results depend on the processing

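Of 1313 values of members and named genes recomputed under the alternatives, 1199 kept their direction and their side of the threshold, 70 lost a call, 6 gained one and 38 changed sign. The GDPD1 difference under heat ran from -1.90 to -1.61 and that of its heat responses from -1.53 to -1.24, while its heat change moved to 1.06 in wt and -0.33 in hop by library size alone. By library size alone SQD2 turned to -0.63 (wt heat), -0.65 (hop heat) and -0.0221 (between genotypes under heat), and PHR1 to -0.0622 at control and -0.0018 under heat between genotypes. In the difference of responses PHT1;4 turned to 0.0112 with DESeq2, and SQD2 to -0.0121 with edgeR and -0.0234 by library size. The cause was not tested.

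Leaving out 1 library changed the sign of uncalled genotype differences, at control for GDPD2 (-0.49 to 0.15), SPX1 (-0.0214 to 0.29), PHT1;4 (-0.20 to 0.0338), SQD1 (-0.15 to 0.00125) and PHR1 (-0.15 to 0.13). Under heat it did so for PHT1;4 (-0.32 to 0.0533), MGD3 (-0.20 to 0.78) and PHR1 (-0.0389 to 0.21), and in the difference of responses for PHT1;4 (-0.25 to 0.12), MGD3 (-0.67 to 0.31), SQD2 (-0.0682 to 0.14) and PHR1 (-0.0497 to 0.27).

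At control the 198 calls over all genes became 305 with edgeR, 440 with DESeq2 and 680 with a replicate block within condition, and 54 to 213 with 1 library left out (68 and 54 without wt control replicates 2 and 3, 93 to 116 without any 1 of the hop control replicates). The further genes then gave 1 call with that block. Under heat the 2053 calls became 1251 by library size, 4302 with the block within condition and 1085 to 2321 with 1 library left out (1174 and 1191 without wt heat replicates 1 and 3, 1085 and 1129 without hop heat replicates 1 and 2). Members called became 2 with DESeq2 and 2 with the block within condition, and 1 to 2 with 1 library left out. The 10 further genes became 2 by library size, 21 with the block within condition and 3 to 10 with 1 library left out. In the difference of responses the 12 calls became 34 with edgeR, 176 with DESeq2, 5 by library size, 34 with the replicate block, 385 with the block within condition and 1 to 94 with 1 library left out, 94 being the count without hop heat replicate 3. Members called there became 1 with DESeq2 and 2 with the block within condition, as did the further genes, at 1 and 2. The block within condition was chosen after seeing the data, and outside control the numbers are only shared numbers. MGD3 and PHT1;9 gave no value with the filter at a mean of 10, nor MGD3 with DESeq2 under heat between genotypes and in the difference of responses. Depth limits SPX3, MGD3, PHT1;9, WRKY42, IPS1 and, under heat, MGD2. It also limits GDPD6 and MYB62 at control and PPsPase1 in hop heat, where PPsPase1 had 9, 8 and 12 fragments.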

Other observations

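Further phosphate genes with a P1BS match in the 1000 bases upstream were compared with those without, as a description with no test. Of the 25 tested genes with a match, 14 were higher and 4 lower under heat in wt, and 14 higher and 3 lower in hop. Of the 34 without, 15 were higher and 14 lower in wt, and 15 higher and 11 lower in hop. Over all genes the shares were nearly the same with a match (32.98% higher and 36.6% lower in wt) and without (33.5% and 37.2%). In hop they were 32.94% higher and 35.88% lower with a match, and 33.68% and 36.65% without. Between genotypes under heat, 5 of the 25 genes with a match were higher in hop and 2 lower, and of the 34 without 2 were higher and 1 lower. Over all genes 4.25% were higher and 5.24% lower with a match in that comparison, and 3.64% and 5.07% without. With library size as the only scaling 0 of the 59 were higher and 2 lower, beside 209 higher and 1042 lower of the 23827 tested genes.

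The non-coding RNA AT4, which sequesters a phosphate-responsive microRNA, rose by 1.29 in wt and 1.25 in hop. Its relative IPS1 had only 1 to 7 fragments per library, with changes of 0.59 and -0.34, and was not called. Both were named after their values were seen.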
